A study of Mus musculus with 5 samples.

Results

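Glycolysis and the response to low oxygen were followed through 38 genes of the 23284 gene symbols counted in mouse forelimb buds. The members were a named list: 15 glycolytic enzymes, 4 transporters of glucose and lactate, 4 regulators of glycolytic flux, 4 HIF subunits and oxygen sensors, and 11 further genes that respond to hypoxia. All 38 had a count in each library and passed the filter on low counts.

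The study asks, by its title, what HOX13 activity does in digit development. The mutant group held 2 libraries from Hoxa13-/-;Hoxd13-/- embryos, made from the distal part of the forelimb at E11.5. The wild-type group held 2 libraries of the same dissected part at E11.5, and the last group was 1 library of whole E10.5 forelimb bud. A neomycin cassette in the Hoxa13 coding region and a lacZ reporter in the first exon of Hoxd13 disrupt the mutant alleles, so both genes are lost in every cell of the embryo. The E11.5 libraries carry a mixed C57BL/6 and CD1 strain label and the E10.5 library a CD1 label. Each E11.5 library came from an independent pool of dissected tissue.

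Glycolysis splits glucose into pyruvate and yields ATP without oxygen, and lactate dehydrogenase then turns pyruvate into lactate. When oxygen is scarce, prolyl hydroxylases of the EGLN family stop marking the alpha subunits HIF1A and EPAS1 for destruction. The subunits then pair with ARNT and raise the transcription of glycolytic enzymes, glucose transporters and angiogenic factors. The early limb bud grows fast while its vessels are still being laid down, and HIF1A is known to be needed for the survival of cartilage cells in the developing limb.

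Gene reads ranged from 45115494 to 59837137 in the E11.5 libraries and reached 84172202 at E10.5. Levels are given as CPM, the reads of a gene scaled to a common total of gene reads, and 1 count was worth at most 0.0222 CPM. CPM is not TMM-scaled, whereas the log2 values are. The TMM factor was 0.864 at E10.5 and 1.02 to 1.05 in the E11.5 libraries, so E10.5 stands higher beside them on the TMM scale. Of 16166 genes tested between mutant and wild type with edgeR, 3.82% rose and 3.34% fell at an adjusted p below 0.05. The targeted gene Hoxd13 had 47.7 and 40.0 CPM in mutant replicates 1 and 2, against 247 and 246 CPM in wild-type replicates 1 and 2 (adjusted p = 1.12e-07 by edgeR), which matched the labels. The 9 limb mesenchyme markers summed to 1947 and 1921 CPM in the mutant libraries, against 1904 and 1852 CPM in wild type. Each marker was detected in both groups. Prrx1 and Pdgfra made up most of the sum, so the sum does not show that the markers were alike. Of these markers Prrx1 and Hoxa11 rose, Hoxd13, Msx1, Fgf10, Twist1 and Prrx2 fell, and the median log2 fold change was -0.39.

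Of the 38 members 7 rose in the mutant and 0 fell, where 3.82% and 3.34% of all tested genes did so and 7.16% were called in either direction. The 7 were the enzyme genes Pfkl, Tpi1, Pgk1 and Ldha, the kinase gene Pdk1, and the hypoxia-responsive genes Bnip3 and P4ha2. In bulk tissue, more cells that express a gene and more RNA per cell cannot be told apart. The rises ran from 1.40-fold (Tpi1) to 2.03-fold (Pdk1). DESeq2 called 5 members higher and 0 lower, where it called 591 genes higher and 538 lower among the 19462 it fitted. At an unadjusted p under 0.05 in edgeR 15 members were higher and 1 was lower, Mxi1 (log2 fold change -0.23, adjusted p = 0.231). The share of all genes at that looser threshold was not taken, so these counts have no baseline. The median log2 fold change of the members was 0.22, beside -0.00082 over all genes tested, and 28 of 38 lay above 0, where 49.8% of all genes did. Leaving out mutant replicate 1 gave a median of 0.026 and leaving out mutant replicate 2 a median of 0.41, and the mutant libraries are therefore given apart throughout.

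Mutant replicate 1 was higher than mutant replicate 2 in 37 of 38 members, where 49.9% of all tested genes were. Pfkfb4 was the exception, with 15.4 and 16.9 CPM. The median gap between these libraries was 0.37 on the log2 scale over the members and -0.00038 over all genes. Of the members 15 stood at or above the 95th percentile of that gap among all genes tested, and 23 at or above the 90th. Against the mean of the wild-type libraries, the median member stood at 0.41 in mutant replicate 1 and at 0.029 in mutant replicate 2. Mutant replicate 1 lay above both wild-type libraries in 29 of 38 members (34.4% of all genes) and mutant replicate 2 in 17 (35.8% of all genes). The wild-type libraries differed by a median of 0.058 over the members, replicate 1 minus replicate 2.

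**Figure D1:**
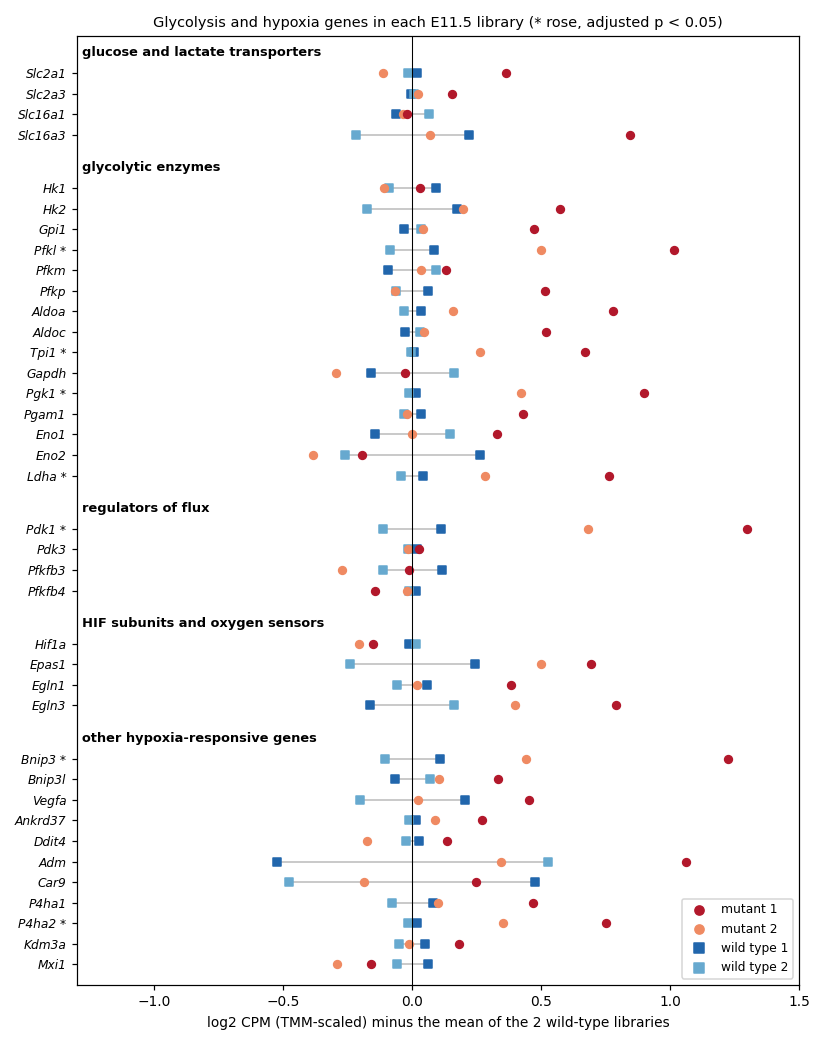
Each row is 1 member, and the horizontal axis is its TMM-scaled log2 CPM minus the mean of the 2 wild-type libraries. Circles are the mutant libraries, squares the wild-type libraries, grey lines join the wild-type pair, and a star marks the 7 members that rose. Mutant replicate 1 stands right of mutant replicate 2 in 37 of 38 rows, and mutant replicate 2 lies above both wild-type libraries in 17.

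**Figure D2:**
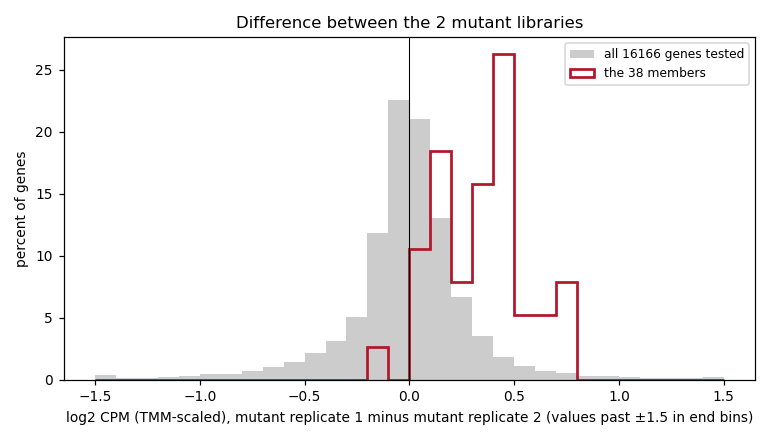
The horizontal axis is the TMM-scaled log2 CPM of mutant replicate 1 minus that of mutant replicate 2, and the vertical axis the percent of genes per bin. Grey bars are all 16166 genes tested and the red line is the 38 members. The members' median is 0.37, beside a median near 0 over all genes.

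The mutant libraries also differed in technical measures. Reads assigned to no gene made up 34.4% and 39.6% of the tallied reads in mutant replicates 1 and 2, against 39.2% and 30.3% in wild-type replicates 1 and 2. The share of reads aligned to several places was 10.3% and 9.10% in the mutant and 10.6% and 14.2% in wild type. The part of these shares in the members' levels was not tested.

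Pdk1 encodes the kinase that inactivates pyruvate dehydrogenase and so keeps pyruvate out of the mitochondrial cycle. Pdk1 had 185 and 121 CPM in mutant replicates 1 and 2, against 82.0 and 67.7 CPM in wild-type replicates 1 and 2 and 70.2 CPM at E10.5. Both mutant libraries lay above both wild-type libraries, and in CPM the E10.5 level fell between those of the wild-type libraries. On the TMM scale wild-type replicates 1 and 2 were both below E10.5, at -0.049 and -0.29 (log2). The means were 153 ± 45.1 CPM in the mutant and 74.9 ± 10.1 CPM in wild type (SD, n = 2 each), and Pdk1 rose (log2 fold change 1.02 with SE 0.16, adjusted p = 0.00199 by edgeR). The rise was 0.68 on the log2 scale without mutant replicate 1 (adjusted p = 0.000175 by edgeR) and 1.30 without mutant replicate 2. Its paralog Pdk3 had 66.6 and 65.0 CPM in mutant replicates 1 and 2, against 66.9 and 63.1 CPM in wild-type replicates 1 and 2, and the groups overlapped (log2 fold change 0.0043 with SE 0.089, adjusted p = 0.989 by edgeR). Per length, as RPKM over exon lengths of GENCODE, Pdk1 made up 53.1% and 43.2% of the summed RPKM of these paralogs in the mutant libraries, against 33.3% and 30.4% in wild type.

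Pfkl encodes the liver-type subunit of phosphofructokinase, which commits fructose 6-phosphate to glycolysis. Pfkl had 454 and 319 CPM in mutant replicates 1 and 2, against 241 and 206 CPM in wild-type replicates 1 and 2 and 248 CPM at E10.5. The mutant libraries were the highest of the 5. The means were 386 ± 95.9 CPM in the mutant and 224 ± 24.5 CPM in wild type (SD, n = 2 each), and Pfkl rose (log2 fold change 0.78 with SE 0.14, adjusted p = 0.00510 by edgeR). It kept that call without mutant replicate 1 (log2 fold change 0.49, adjusted p = 0.0226) and lost it under DESeq2 (adjusted p = 0.0573). The muscle-type subunit gene Pfkm had 87.5 and 82.2 CPM in mutant replicates 1 and 2, against 75.8 and 83.1 CPM in wild-type replicates 1 and 2 (adjusted p = 0.733 by edgeR). The platelet-type subunit gene Pfkp had 20.02 and 13.4 CPM in mutant replicates 1 and 2, against 14.8 and 13.1 CPM in wild-type replicates 1 and 2 (adjusted p = 0.469 by edgeR). Per length, Pfkl made up 78.3% and 73.7% of the summed RPKM of the 3 subunit genes in the mutant libraries, against 69.2% and 64.3% in wild type and 75.2% at E10.5. Its share was higher in each mutant library than in each wild-type library.

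Pgk1 encodes phosphoglycerate kinase, the first ATP-yielding enzyme of the pathway. Pgk1 had 1193 and 859.96 CPM in mutant replicates 1 and 2, against 652 and 618 CPM in wild-type replicates 1 and 2 and 886 CPM at E10.5. The E10.5 library lay between the mutant libraries. Pgk1 rose (log2 fold change 0.68 with SE 0.13, adjusted p = 0.00765 by edgeR), but the call ended without mutant replicate 1 (log2 fold change 0.42, adjusted p = 0.143).

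Ldha encodes the lactate dehydrogenase subunit that favours lactate formation. Ldha had 1301 and 937 CPM in mutant replicates 1 and 2, against 798 and 725 CPM in wild-type replicates 1 and 2 and 1149 CPM at E10.5. In CPM mutant replicate 1 was the highest library and E10.5 the next. With TMM factors applied (1.04 for mutant replicate 1, 0.864 for E10.5), E10.5 was the higher. Ldha rose (log2 fold change 0.54 with SE 0.13, adjusted p = 0.0276 by edgeR), and the call ended without mutant replicate 1 (log2 fold change 0.28, adjusted p = 0.496). With scaling to library size alone its adjusted p was 0.0551.

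Tpi1 encodes triosephosphate isomerase, which interconverts the triose phosphates made by aldolase. Tpi1 had 821 and 622 CPM in mutant replicates 1 and 2, against 524 and 500.5 CPM in wild-type replicates 1 and 2 and 539 CPM at E10.5. The groups did not overlap. Wild type and E10.5 lay close together in CPM. On the TMM scale wild-type replicates 1 and 2 stood at -0.32 and -0.34 (log2) relative to E10.5. Tpi1 rose (log2 fold change 0.48 with SE 0.12, adjusted p = 0.0300 by edgeR), with a log2 fold change of 0.26 and an adjusted p of 0.521 without mutant replicate 1, and an adjusted p of 0.0506 with scaling to library size alone.

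Bnip3 encodes a mitochondrial membrane protein that promotes mitophagy and is a textbook HIF target. Bnip3 had 133 and 77.4 CPM in mutant replicates 1 and 2, against 61.8 and 51.4 CPM in wild-type replicates 1 and 2 and 73.6 CPM at E10.5. Mutant replicate 1 stood far above the others, and mutant replicate 2 above both wild-type libraries by a smaller step. The means were 105 ± 39.0 CPM in the mutant and 56.6 ± 7.35 CPM in wild type (SD, n = 2 each), and Bnip3 rose (log2 fold change 0.88 with SE 0.19, adjusted p = 0.0146 by edgeR). The call ended without mutant replicate 1 (log2 fold change 0.44, adjusted p = 0.0680), with scaling to library size alone (adjusted p = 0.0506) and under DESeq2 (adjusted p = 0.208). P4ha2 encodes a subunit of the prolyl hydroxylase that stabilises collagen. P4ha2 had 36.9 and 28.0 CPM in mutant replicates 1 and 2, against 22.4 and 21.1 CPM in wild-type replicates 1 and 2 and 14.0 CPM at E10.5. The E10.5 library was the lowest of the 5. P4ha2 rose (log2 fold change 0.57 with SE 0.13, adjusted p = 0.0218 by edgeR), and the call ended without mutant replicate 1 (log2 fold change 0.35, adjusted p = 0.311).

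Leaving out 1 library moved the number of calls over all genes as well as over the members, as given under the dependence on processing. In these fits the group left with 1 library is taken to vary like the other. With scaling to library size alone 4 members rose, where 533 of 16166 tested genes did. All 7 members kept a positive log2 fold change in each of these fits. The antisense transcript Gm45507 overlaps 27.2% of the Bnip3 exon bases in GENCODE. Genes on the opposite strand also overlap exon bases of Ankrd37 (20.1%, Lrp2bp), Pfkp (17.4%, Pitrm1) and Gpi1 (12.3%, Gm26762). No label says whether reads were counted by strand, so the counts of these members may hold reads of either. Pgk1, Ldha, Aldoa, Gapdh and Pgam1 each have 2 or 3 processed or related copies in GENCODE that carry the gene's own name. Their counts are uncertain because reads shared with a copy may be lost or moved. Copies under other names, such as Gm5506 for Eno1, were not counted, so these and other members may have more.

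**Figure D3:**
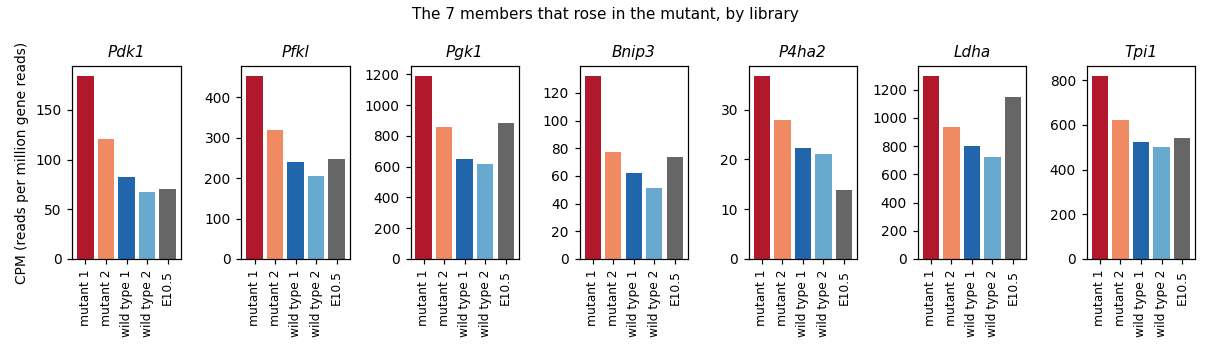
Bars show CPM in each of the 5 libraries for the 7 members that rose, in order of adjusted p, on axes that start at 0 and differ between genes. Mutant replicate 1 is the tallest bar in all 7 panels, and mutant replicate 2 is above both wild-type bars in all 7.

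The proximal promoters of these genes are shown because HIF binds the core letters ACGTG or GCGTG. RefSeq promoters of GRCm38.p6, 250 bases before to 50 after a gene start, were searched for both cores on both strands (reverse complements CACGT and CACGC), where the palindrome CACGTG counts as 2 matches. For each risen member with a match, the stretch from 20 bases before its first to 20 after its last match upstream of the start is printed, with matches in capitals. Of genes with several starts the start with most matches is shown. The stretches lie at chr2:71873126-71873170 (plus strand) for Pdk1, chr10:78009882-78009926 (minus strand) for Pfkl, chrX:106186930-106186993 (plus strand) for Pgk1, chr7:138909517-138909643 (minus strand) for Bnip3, chr11:54100797-54100879 (plus strand) for P4ha2 and chr7:46845639-46845794 (plus strand) for Ldha. Each reads 5′ to 3′ along the gene's own strand.
Pdk1: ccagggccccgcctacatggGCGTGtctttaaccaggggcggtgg
Pfkl: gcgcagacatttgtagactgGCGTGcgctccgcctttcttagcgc
Pgk1: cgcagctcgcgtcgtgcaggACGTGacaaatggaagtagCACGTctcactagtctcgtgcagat
Bnip3: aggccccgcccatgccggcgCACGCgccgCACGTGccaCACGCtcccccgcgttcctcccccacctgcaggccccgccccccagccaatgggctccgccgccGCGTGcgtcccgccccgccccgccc
P4ha2: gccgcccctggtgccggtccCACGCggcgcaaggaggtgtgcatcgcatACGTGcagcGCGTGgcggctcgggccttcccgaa
Ldha: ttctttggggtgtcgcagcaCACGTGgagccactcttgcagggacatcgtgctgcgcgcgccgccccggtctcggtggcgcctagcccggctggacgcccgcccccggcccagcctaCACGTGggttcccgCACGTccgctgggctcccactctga
The Tpi1 promoter held no match to these letters. Bnip3 and Ldha showed 5 matches each in the printed stretch, P4ha2 3, Pgk1 2, and Pdk1 and Pfkl 1 each. Among 35 members with a RefSeq promoter, 32 (91.4%) had at least 1 match, against 64.3% of tested genes matched by current symbol and 46.7% of all genes with a RefSeq promoter. The 32 were 6 of the 7 that rose and 26 of the 28 others. Counted per promoter, a match was held by 78.8% of the members' 52 promoters, against 58.8% of the promoters of tested genes matched by current symbol and 43.8% of all RefSeq promoters. A match of letters describes the sequence and is not a measured binding site.

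The 15 glycolytic enzyme genes are the core of the list, and their median log2 fold change was 0.27. Of them 4 rose and 0 fell, and all 15 were higher in mutant replicate 1 than in mutant replicate 2. Their summed level was 6342 and 4659 CPM in mutant replicates 1 and 2, against 4156 and 4009 CPM in wild type. At E10.5 the sum was 5711 CPM. These sums are not TMM-scaled, and with TMM factors (1.04 for mutant replicate 1, 0.864 for E10.5) the E10.5 sum was the higher. Hk2, the inducible hexokinase that traps glucose in the cell, had 128 and 99.5 CPM in mutant replicates 1 and 2, against 98.5 and 74.5 CPM in wild-type replicates 1 and 2 (log2 fold change 0.39 with SE 0.13, adjusted p = 0.119 by edgeR). Mutant replicate 2 was barely above wild-type replicate 1. Hk1, the housekeeping hexokinase, had 44.1 and 40.2 CPM in mutant replicates 1 and 2, against 46.5 and 39.6 CPM in wild-type replicates 1 and 2 (log2 fold change -0.041), and the groups overlapped. Per length, Hk2 made up 71.6% and 68.1% of the summed RPKM of these hexokinases in the mutant libraries, against 64.7% and 61.9% in wild type.

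Aldoa, the main aldolase gene, had 789 and 517 CPM in mutant replicates 1 and 2, against 476 and 439 CPM in wild-type replicates 1 and 2 (log2 fold change 0.50 with SE 0.15, adjusted p = 0.0750 by edgeR). Mutant replicate 1 carried most of that difference, and the call appeared without mutant replicate 2 (adjusted p = 4.26e-05). Gpi1, the isomerase of the second step, had 309 and 230.4 CPM in mutant replicates 1 and 2, against 220.1 and 222 CPM in wild-type replicates 1 and 2 (adjusted p = 0.241 by edgeR). In mutant replicate 2 Gpi1 exceeded wild type by a few percent only. Pgam1, the phosphoglycerate mutase gene, had 577 and 424 CPM in mutant replicates 1 and 2, against 443 and 407 CPM in wild-type replicates 1 and 2 (adjusted p = 0.369 by edgeR), and mutant replicate 2 fell within the wild-type pair. Aldoc, the brain-type aldolase gene, counted 271 and 158 reads in the mutant libraries, against 141 and 175 in wild type, with a log2 fold change of 0.31 (SE 0.22). Eno2, the neuronal enolase gene, had 3.06 and 2.69 CPM in mutant replicates 1 and 2, against 4.26 and 2.85 CPM in wild-type replicates 1 and 2 (log2 fold change -0.31, SE 0.24).

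Gapdh, often used as a reference transcript, did not follow the other abundant enzymes. It had 593 and 495 CPM in mutant replicates 1 and 2, against 547 and 659.9 CPM in wild-type replicates 1 and 2 and 1351 CPM at E10.5. The groups overlapped, E10.5 was the highest library, and the log2 fold change was -0.16 (SE 0.12, adjusted p = 0.524 by edgeR). Without wild-type replicate 1 it was -0.32 (adjusted p = 0.0248), and without wild-type replicate 2 0.0094.

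Eno1, the main enolase gene of most tissues, was counted at an unusually low level. It had 16.8 and 13.4 CPM in mutant replicates 1 and 2, against 12.2 and 14.4 CPM in wild-type replicates 1 and 2 and 0.368 CPM at E10.5, which is 31 reads at E10.5. The table also lists Gm5506, named Eno1b in RefSeq, with 102 and 74.5 CPM in mutant replicates 1 and 2, against 153 and 178 CPM in wild-type replicates 1 and 2 and 295 CPM at E10.5. Gm5506, which was chosen after its values were seen, fell (log2 fold change -0.92 with SE 0.14, adjusted p = 0.00133 by edgeR) while Eno1 had a log2 fold change of 0.17 (adjusted p = 0.630). Eno1 and Eno1b share sequence, so the counts of both are uncertain, and neither their level nor their difference between groups can be assigned to 1 gene. How reads were divided between them was not tested.

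The transporters carry glucose into the cell and lactate across its membrane, and of these 4 genes 0 rose and 0 fell. Slc16a3, which exports lactate as MCT4, had 93.3 and 54.7 CPM in mutant replicates 1 and 2, against 61.1 and 43.5 CPM in wild-type replicates 1 and 2 and 78.2 CPM at E10.5. In CPM mutant replicate 1 was the highest library, an order that did not hold against E10.5 on the TMM scale. Mutant replicate 2 lay inside the wild-type pair (log2 fold change 0.49 with SE 0.20, adjusted p = 0.2002 by edgeR). Without mutant replicate 2 it rose (log2 fold change 0.83, adjusted p = 1.59e-06 by edgeR), and without mutant replicate 1 its log2 fold change was 0.052. Slc2a1, the glucose transporter GLUT1, had 111 and 80.2 CPM in mutant replicates 1 and 2, against 88.5 and 83.2 CPM in wild-type replicates 1 and 2. Mutant replicate 2 was the lowest of these 4 libraries and mutant replicate 1 the highest, and the log2 fold change was 0.15 (adjusted p = 0.620 by edgeR), turning to -0.11 without mutant replicate 1. Slc2a3, the glucose transporter GLUT3, had 247 and 227 CPM in mutant replicates 1 and 2, against 224 and 217 CPM in wild-type replicates 1 and 2 and 143 CPM at E10.5 (log2 fold change 0.09, adjusted p = 0.652 by edgeR). Slc16a1, the lactate transporter MCT1, had 155 and 155 CPM in mutant replicates 1 and 2, against 152 and 161 CPM in wild-type replicates 1 and 2, and the mutant values lay inside the wild-type pair.

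Among the regulators of flux, Pdk1 alone passed the test. The bifunctional enzymes encoded by Pfkfb3 and Pfkfb4 set the level of fructose 2,6-bisphosphate, the activator of phosphofructokinase. Pfkfb3 had 20.3 and 17.1 CPM in mutant replicates 1 and 2, against 22.5 and 18.5 CPM in wild-type replicates 1 and 2 (log2 fold change -0.14, adjusted p = 0.640 by edgeR). Pfkfb4 had 15.4 and 16.9 CPM in mutant replicates 1 and 2, against 17.4 and 16.5 CPM in wild-type replicates 1 and 2 (log2 fold change -0.083, adjusted p = 0.785 by edgeR). For Pfkfb4 the groups overlapped in CPM, while on the TMM scale both mutant libraries were just below both wild-type libraries (SE of the log2 fold change 0.12).

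The HIF subunits and their sensors did not pass the test. Hif1a, the broadly expressed oxygen-labile subunit, had 259 and 251 CPM in mutant replicates 1 and 2, against 289 and 283 CPM in wild-type replicates 1 and 2 and 289 CPM at E10.5. Both mutant libraries lay below both wild-type libraries, at log2 fold change -0.18 with SE 0.083, adjusted p = 0.262 by edgeR. HIF1A is controlled mainly through protein stability, which RNA counts do not measure. Epas1, the subunit HIF-2 alpha of vessels, had 5.58 and 4.91 CPM in mutant replicates 1 and 2, against 4.12 and 2.83 CPM in wild-type replicates 1 and 2, or 334 and 237 reads in the mutant against 186 and 158 in wild type (log2 fold change 0.59 with SE 0.21, adjusted p = 0.138 by edgeR). Without wild-type replicate 1 Epas1 rose (log2 fold change 0.85, adjusted p = 0.0140). Egln3, a prolyl hydroxylase gene that HIF itself induces, had 4.36 and 3.33 CPM in mutant replicates 1 and 2, against 2.26 and 2.74 CPM in wild-type replicates 1 and 2 (log2 fold change 0.60 with SE 0.23, adjusted p = 0.164 by edgeR), with no overlap between the groups. Egln1, the main oxygen sensor, had 71.9 and 56.1 CPM in mutant replicates 1 and 2, against 58.1 and 51.7 CPM in wild-type replicates 1 and 2 (adjusted p = 0.375 by edgeR), and mutant replicate 2 lay inside the wild-type pair.

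Of the 11 other hypoxia-responsive genes 2 rose (Bnip3 and P4ha2) and 0 fell, and all 11 were higher in mutant replicate 1 than in mutant replicate 2. Vegfa, the angiogenic growth factor, had 90.4 and 67.2 CPM in mutant replicates 1 and 2, against 76.9 and 55.8 CPM in wild-type replicates 1 and 2 (log2 fold change 0.24, adjusted p = 0.436 by edgeR). Mutant replicate 2 lay between the wild-type libraries, and without wild-type replicate 1 the adjusted p was 0.0234. P4ha1, the paralog of P4ha2, had 178 and 138 CPM in mutant replicates 1 and 2, against 137 and 119 CPM in wild-type replicates 1 and 2 (log2 fold change 0.29 with SE 0.12, adjusted p = 0.179 by edgeR). Bnip3l, the mitophagy receptor NIX, had 223 and 191 CPM in mutant replicates 1 and 2, against 171 and 181 CPM in wild-type replicates 1 and 2 (adjusted p = 0.242 by edgeR), and the groups did not overlap. Adm, the vasodilator adrenomedullin, was near the detection limit with 44 and 21 reads in the mutant against 10 and 27 in wild type, at log2 fold change 0.69 with SE 0.50, adjusted p = 0.515 by edgeR. Car9, a carbonic anhydrase gene strongly induced by hypoxia in tumour cells, had 116 and 69 reads in the mutant against 104 and 63 in wild type, at log2 fold change -0.014 and adjusted p = 0.990 by edgeR (SE 0.34). Wild-type replicate 1 held the highest Car9 level of the 5 libraries at 2.31 CPM. Ankrd37 (log2 fold change 0.18), the histone demethylase gene Kdm3a (0.087), the mTORC1 inhibitor gene Ddit4 (-0.011) and the MYC antagonist gene Mxi1 (-0.23) had adjusted p between 0.231 and 0.976 by edgeR. Mxi1 was below both wild-type libraries in both mutant libraries.

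In total 17 of 38 members had both mutant libraries above both wild-type libraries, where 24.7% of all tested genes did, and 3 (Hif1a, Mxi1 and Pfkfb4) had both below, where 24.2% did.

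Other genes of these pathways were taken as lists. Of 21 tested glycolysis genes outside the members 2 rose and 1 fell, with a median of 0.13. Pgm2, a phosphoglucomutase gene, had 79.7 and 58.2 CPM in mutant replicates 1 and 2, against 36.0 and 39.8 CPM in wild-type replicates 1 and 2 and rose (log2 fold change 0.85 with SE 0.14, adjusted p = 0.00258 by edgeR). The muscle enolase gene Eno3 rose (0.41) and the muscle mutase gene Pgam2 fell (-0.69), and each call ended without any 1 of 3 libraries, mutant replicate 1 or 2 or wild-type replicate 1 (highest adjusted p = 0.163 for Eno3 and 0.283 for Pgam2). Pkm2, the pyruvate kinase gene, which was named after its values were seen, had 2724 and 2282 CPM in mutant replicates 1 and 2, against 2144 and 2137 CPM in wild-type replicates 1 and 2 (adjusted p = 0.301 by edgeR). Of 38 other hypoxia-responsive genes 3 rose and 2 fell, and 31 were higher in mutant replicate 1 than in mutant replicate 2. The transcription factor gene Bhlhe40 rose (log2 fold change 1.09, adjusted p = 0.0249 by edgeR), and its call ended without mutant replicate 1 (adjusted p = 0.289). Plod2, a collagen lysyl hydroxylase gene named after its values were seen, fell (-0.37, adjusted p = 0.0324), a call that ended without mutant replicate 2 (adjusted p = 0.451), and Dpysl4 fell (-0.58, adjusted p = 0.00551). Wsb1 also rose (0.37, adjusted p = 0.0179 by edgeR), lost the call without mutant replicate 1 (adjusted p = 0.173) or 2 (adjusted p = 0.153). The 15 HIF partners and regulators had 0 risen and 0 fallen, with a median of -0.0012.

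In the lists of pathways next to glycolysis, the MYC family and the ATF4 response, 6 genes were called, all lower in the mutant. Of all tested genes 3.34% fell and 3.82% rose. Pentose phosphate and serine synthesis, with 13 genes, held 3 of the 6 falls. Pyruvate dehydrogenase and the TCA cycle had 0 risen and 0 fallen of 23 genes (median -0.073), with a summed level of 2925 and 3013 CPM in the mutant libraries against 3045 and 3209 CPM in wild type. Oxidative phosphorylation had 0 risen and 1 fallen of 26 (median -0.066), namely the complex I subunit gene Ndufb8 (-0.40, adjusted p = 0.0167 by edgeR). Leaving out mutant replicate 1 (adjusted p = 0.193) or 2 (adjusted p = 0.0566) ended the Ndufb8 call. In pentose phosphate and serine synthesis 0 rose and 3 fell of 13 (median -0.18). Pgd, a dehydrogenase of the pentose phosphate pathway, had 78.1 and 73.5 CPM in mutant replicates 1 and 2, against 151 and 161 CPM in wild-type replicates 1 and 2 and fell (log2 fold change -1.06 with SE 0.09, adjusted p = 2.49e-05 by edgeR), with the mutant libraries nearly equal. The serine synthesis genes Phgdh (-0.37) and Psat1 (-0.34) fell, and both calls ended without mutant replicate 1, mutant replicate 2 or wild-type replicate 2 (highest adjusted p = 0.263 for Phgdh and 0.316 for Psat1). In the MYC family Max fell (-0.45, adjusted p = 0.0340; 0 risen and 1 fallen of 8), a call that ended without mutant replicate 2 (adjusted p = 0.327) and again without wild-type replicate 1 (adjusted p = 0.05004). In the ATF4 and unfolded protein response list 0 rose and 1 fell of 16, the cystine transporter gene Slc7a11 (-0.62, adjusted p = 0.00199).

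**Figure D4:**
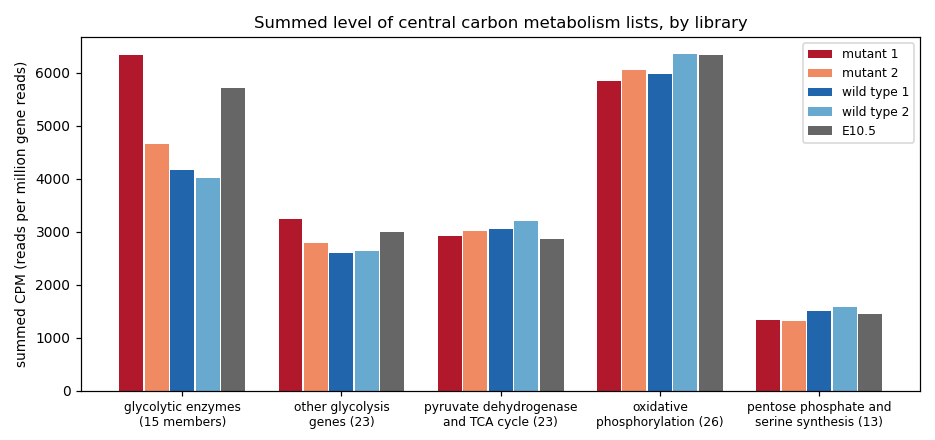
Bars give the summed CPM of 5 lists of central carbon metabolism in each library, on an axis that starts at 0. The 15 glycolytic enzymes sum to 6342 and 4659 CPM in mutant replicates 1 and 2 against 4156 and 4009 CPM in wild type, while the TCA cycle list stays between 2925 and 3209 CPM and the oxidative phosphorylation list between 5838 and 6353 CPM over these 4 libraries.

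Markers of other cell types were read in the same libraries. The 10 erythroid markers summed to 3024 and 2982 CPM in the mutant against 2411 and 2325 CPM in wild type, with 1 risen and 0 fallen of 9 tested. Hba-a1 was at 0 in all 5 libraries. The 12 macrophage markers summed to 89.8 and 86.7 CPM against 58.1 and 72.7 CPM in wild type (2 risen, 0 fallen), and the 12 endothelial markers to 322 and 296 CPM against 278 and 281 CPM in wild type (1 risen, 1 fallen). Between mutant replicates 1 and 2 the median log2 gap was 0.07 for erythroid, 0.0054 for macrophage and 0.12 for endothelial markers, beside 0.37 for the members. Muscle markers summed to 85.8 and 117 CPM against 127 and 141 CPM in wild type (0 risen and 1 fallen of 9, gap -0.31). Neuron and Schwann cell markers summed to 21.1 and 21.8 CPM against 43.0 and 47.3 CPM in wild type (0 risen and 2 fallen of 10, gap 0.25). Ectoderm markers had 1 risen and 3 fallen of 10, early cartilage markers 1 and 0 of 8, limb mesenchyme markers 2 and 5 of 9, and immediate early and heat shock genes 1 and 2 of 13, with gaps of -0.013, 0.029, 0.16 and 0.17 between mutant replicates 1 and 2. The part of these markers in the members' levels was not tested.

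Between stages, 26 of the 38 members were lower on the TMM scale in E11.5 wild-type distal forelimb than in E10.5 forelimb bud. The E10.5 group has 1 library, so its spread was not measured and no test was run, and stage, dissected part and strain label cannot be told apart. A gene was called when both wild-type libraries differed at least 2-fold from E10.5 in 1 direction on TMM-scaled log2 CPM. By that rule 2 members were higher at E11.5 (Eno1 and Eno2) and 1 was lower (Gapdh), where 12.5% and 4.06% of 16339 genes were. The median log2 difference was -0.24 over the members and -0.0052 over all genes, and 12 of 38 members were above 0 where 49.6% of all genes were. With scaling to library size alone the all-gene median moved to 0.25 and the members' median to 0.014. By that scaling 21 of 38 members lay above 0, against 12 with TMM, so the direction of some members depended on the scaling. Above the all-gene median lay 12 members with either scaling.

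Gapdh was -1.58 and -1.27 on the log2 scale in wild-type replicates 1 and 2 relative to E10.5, and its copies make that value uncertain. Ldha stood at -0.80 and -0.90, Pgk1 at -0.71 and -0.75, and Aldoa at -0.61 and -0.68. These were lower at E11.5 in both wild-type libraries, short of 2-fold. Slc16a3 had -0.63 and -1.08, and Adm -1.82 and -0.77, so in each 1 library passed 2-fold and the other did not, and with either wild-type library left out 2 members were lower. On the higher side, Eno2 had 1.79 and 1.26, from 84 reads at E10.5, and Aldoc 0.97 and 1.01, from 110. Of the marker lists, macrophages had 10 of 12 genes called higher at E11.5 (median 1.54), early cartilage 4 of 8 (0.94), muscle 4 of 9 with 2 lower (0.59) and neurons and Schwann cells 3 of 10 with 1 lower (0.75), while erythroid cells had 4 of 9 called lower (-1.06). Their part in the members' stage values was not tested. Slc2a3 (0.37 and 0.37), P4ha2 (0.41 and 0.36) and Pfkp (0.66 and 0.52) were above E10.5 in both wild-type libraries. The Eno1 values of 4.67 and 4.95 rest on its 31 reads at E10.5 and are uncertain as said above.

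**Figure D5:**
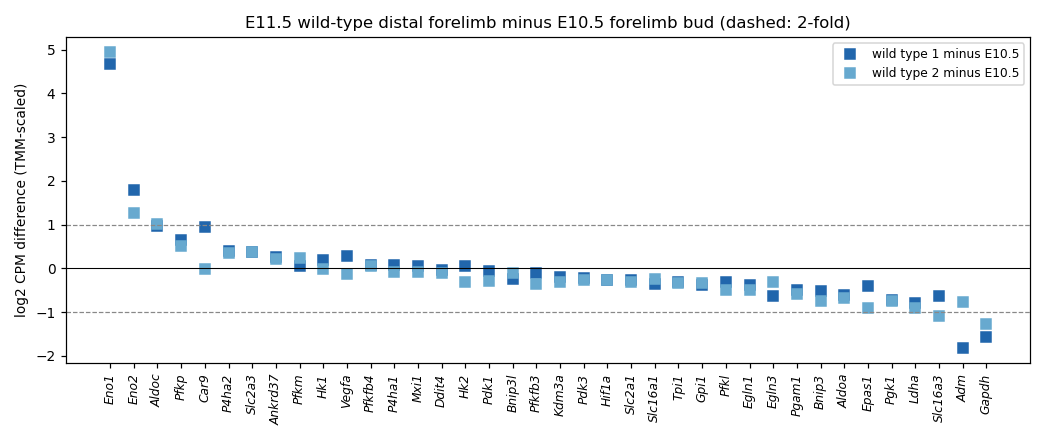
The vertical axis is the TMM-scaled log2 CPM of wild-type replicate 1 (dark squares) or 2 (light squares) at E11.5 minus that of the E10.5 library, for the 38 members in order of their mean. Dashed lines mark 2-fold. Eno1 and Eno2 lie above the upper line in both libraries and Gapdh below the lower line.

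Because wild type serves both comparisons, the mutant and stage values of a gene share those libraries and are given side by side without a test. Ldha was 0.54 in the mutant over wild type and -0.85 in wild type over E10.5. For Pgk1 these values were 0.68 and -0.73, for Bnip3 0.88 and -0.64, and for Pfkl 0.78 and -0.40. For Pdk1 they were 1.02 and -0.17, and for P4ha2 0.57 and 0.38.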

How the data were processed

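RNA was sequenced from 5 libraries of mouse forelimb bud, with ribosomal RNA depleted and stranded kits used, per the labels' protocols. The authors deposited whole-number counts per gene symbol from HTSeq, which with TopHat2 2.0.13, Cufflinks 2.1.1 and SAMtools on mm9 is named in the submitters' processing notes. The annotation, strand setting and filters are not given in the sources used here. The 5 summary lines of each table were left out of library sizes: reads without a feature made up 24.3% to 39.6% of the tallied reads and ambiguous reads 0.751% to 1.14%.

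The 2 mutant and 2 wild-type libraries were compared with edgeR 4.0.16 (quasi-likelihood F test, legacy estimate, TMM scaling, filterByExpr with a minimum count of 10 and minimum total of 15) in R 4.3.3. P-values were adjusted by Benjamini-Hochberg over all 16166 genes tested, with calls at 0.05. SE is the absolute log2 fold change divided by the square root of F. Log2 values of single libraries used a prior count of 2. Each library is a separate pool of tissue, so p-values measure the spread between pools. Replicates differed beyond counting noise (chi-square per degree of freedom 12.5 in the mutant and 29.9 in wild type). DESeq2 1.42.0, other scalings, no filter, the newer edgeR estimate, the replicate number as a block and leaving out each library were the alternatives.

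The members and lists were chosen with earlier results of these data known. All members are named, with full values for those that passed the test, the 6 largest changes of the rest, Hif1a, Epas1 and Gapdh. Of each other list at most the 4 smallest adjusted p of those that passed are named, and 1 such gene is not reported here. Exon lengths came from GENCODE on GRCm38 and promoters from RefSeq on GRCm38.p6, neither of which is the build of the counts.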

Additional observations from a re-analysis of the deposited data

How the results depend on the processing

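The median log2 fold change of the members stayed above 0 in every alternative run, from 0.026 to 0.41 with 1 library left out. Members that rose numbered 4 with scaling to library size alone, where the calls of Tpi1, Ldha and Bnip3 ended, 12 without the filter on low counts, and 2 to 13 with 1 library left out. Members that fell numbered 0 to 1 with 1 library left out. Over all genes 959 rose and 803 fell without the filter, and 410 to 1113 rose and 373 to 905 fell with 1 library left out. In the other pathway lists 5 rose and 9 fell, 9 and 13 without the filter, and 2 to 9 and 3 to 20 with 1 library left out. Members lower at E11.5 than at E10.5 numbered 6 at 1.5-fold and 2 with either wild-type library left out. The cause was not tested.

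Without a call, the log2 fold change of Ddit4 changed sign with library size alone (0.0023), and that of Car9 with the newer estimate (0.017) and the replicate block (0.015). With 1 library left out it ran from -0.11 to 0.37 for Slc2a1, -0.095 to 0.039 for Slc16a1, -0.13 to 0.050 for Hk1, -0.011 to 0.18 for Pfkm, -0.068 to 0.52 for Pfkp and -0.32 to 0.0094 for Gapdh. It ran from -0.020 to 0.43 for Pgam1, -0.012 to 0.32 for Eno1, -0.018 to 0.028 for Pdk3, -0.18 to 0.14 for Ddit4, -0.43 to 0.54 for Car9 and -0.015 to 0.19 for Kdm3a.

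The labels share replicate numbers 1 and 2 across genotypes without saying that a number pairs pools, and the deviations of same-numbered libraries from their group means correlated at -0.078 over 16166 genes. With the replicate block 10 members rose, the 7 among them, 676 genes rose and 576 fell, and 7 and 10 genes of the other pathway lists. Genes with few reads, such as Adm with 10 to 44 reads in the E11.5 libraries, have the widest errors among the members.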
